A study of Mus musculus with 12 samples.

Results

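The small leucine-rich proteoglycans are secreted matrix proteins, and 10 of their genes that fibroblasts are known to express were followed here: Bgn, Dcn, Aspn, Ecm2, Lum, Fmod, Prelp, Omd, Ogn and Podn. They were chosen by symbol, as 10 of the 48795 genes in the deposited table, and all 10 were among the 14704 genes that passed the filter on low counts. Transcript levels came from ribosome-depleted, strand-marking total RNA of NIH3T3, an immortalised mouse embryo fibroblast line grown in DMEM/F12 with fetal bovine serum. The parental wild-type line was sampled at passages 6, 7 and 8, and the Aebp1-knockout clones F5, G5 and H7 were each sampled at passages 7, 8 and 9, or 12 libraries in 4 groups of 3. The parental line was not cloned and each clone is a single-cell derivative, so the effect of cloning and the effect of the knockout cannot be told apart. No label says that passages were separate cultures, and p-values here refer to the spread among these libraries, which may be technical. Because the parental passages were 6 to 8 and the clone passages 7 to 9, the libraries were also compared by their place in the line (the first, the middle or the third).

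Small leucine-rich proteoglycans have a horseshoe-shaped core of leucine-rich repeats that binds collagen fibrils and sets their spacing and thickness. Most carry chains of chondroitin or dermatan sulfate (the class I proteins decorin and biglycan) or of keratan sulfate (the class II proteins lumican, fibromodulin and osteomodulin), and several bind growth factors such as TGF-beta. They are abundant products of fibroblasts in skin, tendon and cornea, and decorin is a common marker of fibroblasts in tissue. AEBP1, the protein targeted in the clones, is itself a secreted collagen-binding protein, and the title of the study names cancer-associated fibroblasts as its setting.

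The genes lie on 5 chromosomes, by GENCODE M21 coordinates on GRCm38. Bgn (ENSMUSG00000031375) lies at chrX:73483602-73495933 on the plus strand. Dcn (ENSMUSG00000019929, chr10:97479609-97518143) and Lum (ENSMUSG00000036446, chr10:97565128-97572703) are neighbours on the plus strand, 46985 bases apart. Prelp (ENSMUSG00000041577, chr1:133910304-133921414, minus strand) and Fmod (ENSMUSG00000041559, chr1:134037254-134048277, plus strand) are a second pair, 115840 bases apart. Ecm2 (ENSMUSG00000043631, chr13:49504810-49532789), Aspn (ENSMUSG00000021388, chr13:49544443-49567565), Omd (ENSMUSG00000048368, chr13:49582462-49592822) and Ogn (ENSMUSG00000021390, chr13:49608046-49624501) follow each other on the plus strand of chromosome 13. That row of 4 genes lies within Cenpp, which is on the opposite strand and had a mean of 4.14 CPM (counts per 1000000, scaled by edgeR's TMM factors). Podn (ENSMUSG00000028600) lies at chr4:108014791-108096445 on the minus strand and overlaps Scp2, which is on the same strand and had a mean of 80.2 CPM. The use of strand in counting was not given in the sources used here, and reads of overlapping genes may have been shared. The genes encode proteins of 298 (Ogn) to 670 (Ecm2) codons.

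RefSeq promoter windows (GRCm38.p6) were matched for 8 of the 10 genes, all but Dcn and Lum. The 250 bases before the start of 3 genes are shown because Bgn held the highest and flattest level across the libraries, while Aspn and Ogn, 2 genes of the row on chromosome 13, both rose in the middle passage and had fold changes of opposite sign in F5 and G5. Capitals mark matches, on either strand, to the motifs searched: the TATA box (TATAAA), the CAAT box (CCAAT), the GC box (GGGCGG), the AP-1 motif (TGANTCA), the TEAD motif (GGAATG) and the SMAD motif (CAGACA). Sequences run 5′ to 3′.
Bgn, chrX:73483351-73483600, plus strand: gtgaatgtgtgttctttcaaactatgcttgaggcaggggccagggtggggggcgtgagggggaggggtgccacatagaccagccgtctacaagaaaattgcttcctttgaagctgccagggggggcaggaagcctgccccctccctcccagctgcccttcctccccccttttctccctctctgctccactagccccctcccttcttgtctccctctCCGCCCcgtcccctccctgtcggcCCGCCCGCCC
Aspn, chr13:49544193-49544442, plus strand: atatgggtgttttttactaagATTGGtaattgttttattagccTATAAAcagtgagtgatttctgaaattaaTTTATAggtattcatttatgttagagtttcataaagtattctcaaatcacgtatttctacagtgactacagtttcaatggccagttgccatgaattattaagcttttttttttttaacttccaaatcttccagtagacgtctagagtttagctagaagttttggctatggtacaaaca
Ogn, chr13:49607765-49608014, plus strand: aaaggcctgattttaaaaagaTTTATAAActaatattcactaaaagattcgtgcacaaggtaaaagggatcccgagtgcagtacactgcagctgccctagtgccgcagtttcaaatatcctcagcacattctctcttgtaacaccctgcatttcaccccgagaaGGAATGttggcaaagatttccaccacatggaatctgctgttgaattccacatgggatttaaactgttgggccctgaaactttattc
The Bgn window had a GC content of 64.4% and 3 matches to GGGCGG, all on the minus strand, of which 2 overlap each other at its end. GGGCGG was found in 32.7% of the 250-base windows of all 32851 promoters. The Aspn window had a GC content of 30% with 2 matches to TATAAA and 1 to CCAAT, and the Ogn window had 42% with 2 overlapping TATAAA matches and 1 match to GGAATG. Of all promoters, 12.4% held TATAAA, 33.8% held CCAAT and 12.6% held GGAATG. The 8 genes' windows held no match to TGANTCA, which 6.75% of all promoters held, or to CAGACA, which 17.1% held. Bgn thus has the GC-rich window of the 3, and Aspn and Ogn the AT-rich windows. A match is only a match of letters, and binding was not measured.

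Libraries held 22088695 to 31329735 counts, and a gene was called changed at an adjusted p under 0.05 over the 14704 genes tested. Aebp1 fell from 553 ± 76.6 CPM (SD, n = 3) in the parental line to 193 ± 19.9 in F5 and 128.3 ± 8.46 in G5, with 147 ± 14.4 in H7 (log2 fold changes of -1.52, -2.11 and -1.91, edgeR adjusted p = 3.6e-05, 9.24e-06 and 3.26e-06), so its transcript was lower but still present in every clone. The 8 fibroblast markers (Col1a1, Col1a2, Pdgfra, Pdgfrb, Thy1, Vim, Prrx1 and Twist1) all passed the filter and summed to 15729 to 18283 CPM in the parental libraries, 12773 to 14846 in F5 and 12277 to 13798 in G5, with 14060 to 15242 in H7. Of the markers of other cell types, Epcam (epithelium), Adgre1 (macrophages), Col9a1 (cartilage), Ibsp (bone), Cebpa (fat), Myod1, Myog and Pax7 (muscle) were at 0 counts in all 12 libraries. Epithelial markers summed to at most 1.03 CPM, endothelial markers to at most 1.19, bone markers to at most 0.358, fat markers to at most 0.177, muscle markers to at most 1.04, leukocyte markers to 4.74 to 7.93 and tendon markers to 8.48 to 14.0, mostly Mkx. Cartilage markers summed to 106 to 292 CPM, nearly all of it Sox9, which had a mean of 185 CPM. In RNA from whole cultures, fewer cells of a type and less RNA per cell cannot be told apart.

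Bgn was by far the most abundant of the 10 genes. On the per-length scale of the deposited TPM (transcripts per 1000000), its mean level over the 12 libraries was 1761, against 72.5 for Dcn, 22.6 for Lum, 19.5 for Aspn, 11.7 for Ogn, 4.61 for Prelp, 1.48 for Omd, 1.01 for Fmod, 0.584 for Podn and 0.433 for Ecm2. Bgn was above Dcn and Dcn above Lum in 12 of 12 libraries. Some neighbours lower in that order overlapped: Lum was above Aspn in 6 libraries and Aspn above Ogn in 6, while Podn was above Ecm2 in 4. The order also depended on the line, since by line mean Ogn was the second most abundant of the 10 in G5 (14.7 ± 4.61 TPM, SD, n = 3) and in F5 (15.4 ± 6.35), where Dcn had 15.0 ± 5.44. In F5 this rested on passage 8, with 22.4 TPM for Ogn and 20.8 for Dcn. At F5 passages 7 and 9 Dcn was slightly higher, at 10.1 and 14.2 against 9.99 and 13.8 for Ogn.

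**Figure D1:**
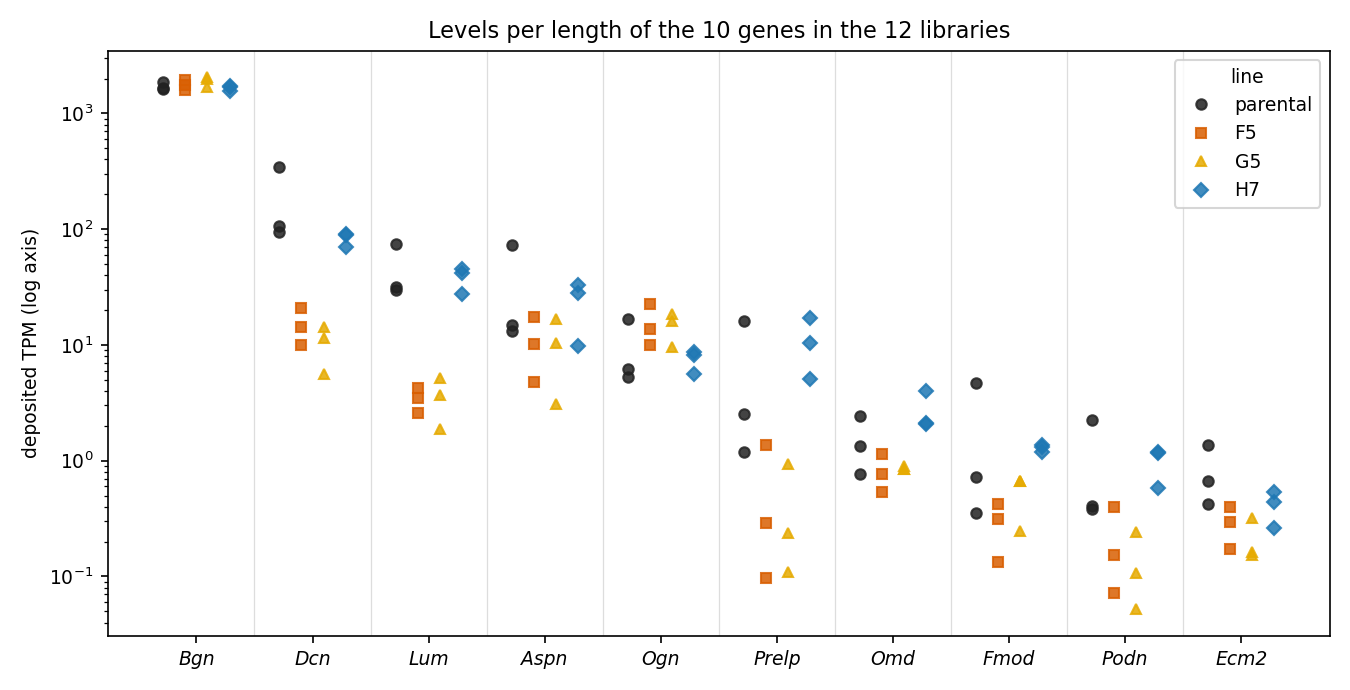
Deposited TPM (log axis) of each of the 10 genes, 1 point per library, coloured by line. Bgn stays between 1573 and 2047 TPM in all 12 libraries, while Dcn runs from 5.59 to 341 and Prelp from 0.0964 to 17.0.

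The other 9 genes together made up a smaller share in F5 and G5 than in the other 2 lines. Their summed TPM was 158 at passage 6, 532 at passage 7 and 153 at passage 8 of the parental line. It was 28.6 to 68.8 in F5 and 21.5 to 57.9 in G5, with 123 to 198 in H7, so F5 and G5 lay below every parental and H7 library. As a share of the TPM of all 10 genes, the 9 made up 13.6 ± 9.50% (SD, n = 3) in the parental line, 2.68 ± 1.38% in F5 and 2.15 ± 1.11% in G5, with 9.24 ± 2.29% in H7. Passage 7 set the parental mean above that of H7, since the other parental libraries had 7.84% and 8.49%, a mean of 8.16%.

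**Figure D2:**
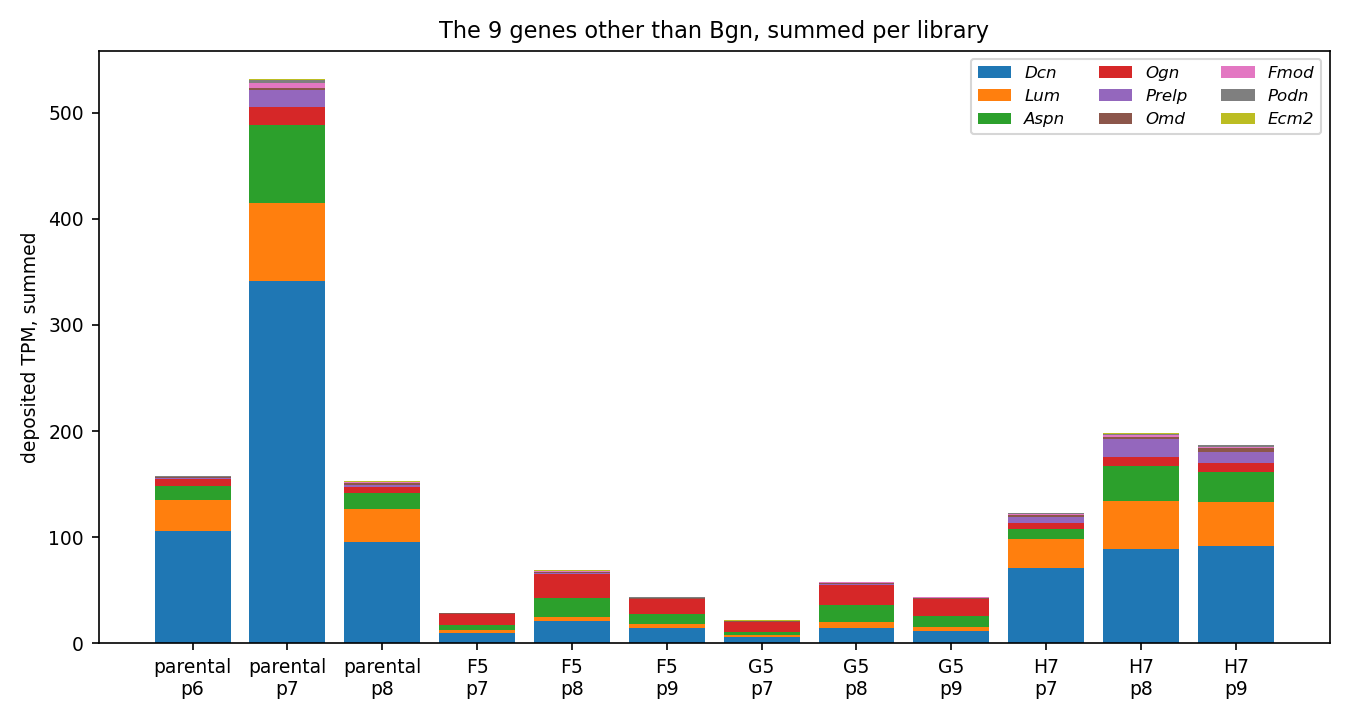
Summed deposited TPM of the 9 genes other than Bgn in each library (p, passage), as stacked bars from 0. The parental library of passage 7 stands highest at 532, with 341 of it from Dcn, and the F5 and G5 libraries reach at most 68.8.

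Among the class I genes, Bgn (biglycan, which carries chondroitin or dermatan sulfate chains) kept nearly the same level in every line. It had 2495, 2105 and 2223 CPM at parental passages 6, 7 and 8, and 2524, 2050 and 2317 in F5 and 2558, 2214 and 2486 in G5, with 2218, 2087 and 2340 in H7 at passages 7, 8 and 9. All 4 groups overlapped, and the middle passage was the lowest of the 3 in each line. The log2 fold change for the mean of the clones was 0.02 ± 0.08 (SE; edgeR adjusted p = 0.885), and in each clone it lay between -0.04 and 0.09.

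Dcn (decorin, which binds collagen and TGF-beta) was lowest in F5 and G5. Its CPM was 112 (passage 6), 348 (passage 7) and 101 (passage 8) in the parental line, and at passages 7, 8 and 9 it was 10.4, 21.3 and 14.7 in F5 and 5.69, 14.9 and 11.1 in G5, with 72.4, 92.6 and 98.6 in H7. All F5 and G5 values lay below all parental and H7 values, and all H7 values lay below the lowest parental value. The log2 fold change was -3.59 ± 0.51 in F5 (edgeR adjusted p = 0.00123), -4.16 ± 0.53 in G5 (adjusted p = 0.000648) and -1.09 ± 0.46 in H7 (adjusted p = 0.126, not called). Set against Bgn within each library, Dcn TPM was 10.8 ± 8.77% (SD, n = 3) of Bgn TPM in the parental line, 5.04 ± 0.785% in H7, 0.882 ± 0.405% in F5 and 0.565 ± 0.283% in G5. Without parental passage 7 (20.9%) the parental mean was 5.75%, next to the H7 values of 4.14 to 5.62%.

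Aspn (asporin, a class I protein without a glycosaminoglycan chain that binds collagen) had 17.4, 93.0 and 19.5 CPM in the parental line. It had 6.17, 22.4 and 13.2 CPM in F5 and 3.89, 21.5 and 12.4 in G5, with 12.4, 42.8 and 37.5 in H7. The groups overlapped, with each line's middle passage the highest, and the log2 fold changes of -1.63 ± 0.78 in F5 and -1.79 ± 0.79 in G5, with -0.49 ± 0.75 in H7, were not called (edgeR adjusted p = 0.191, 0.165 and 0.705). Ecm2, a leucine-rich matrix protein related to this class, was the least abundant gene per length by its mean over the 12 libraries. By line mean Podn was lower in F5 and G5. Ecm2 had 0.850, 2.64 and 1.36 CPM in the parental line. Its values were 0.345, 0.784 and 0.579 CPM in F5 and 0.318, 0.635 and 0.279 in G5, with 0.517, 1.07 and 0.905 in H7. All F5 and G5 values lay below all parental values and H7 overlapped the parental range. Ecm2 was called lower in G5 (log2 fold change -2.00 ± 0.50, edgeR adjusted p = 0.024), with -1.49 ± 0.47 in F5 (adjusted p = 0.0578) and -0.96 ± 0.46 in H7 (adjusted p = 0.176). The G5 call of Ecm2 was lost in 5 of 21 alternatives, among them limma on log2(TPM + 1) and leaving out G5 passage 7 or G5 passage 9.

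**Figure D3:**
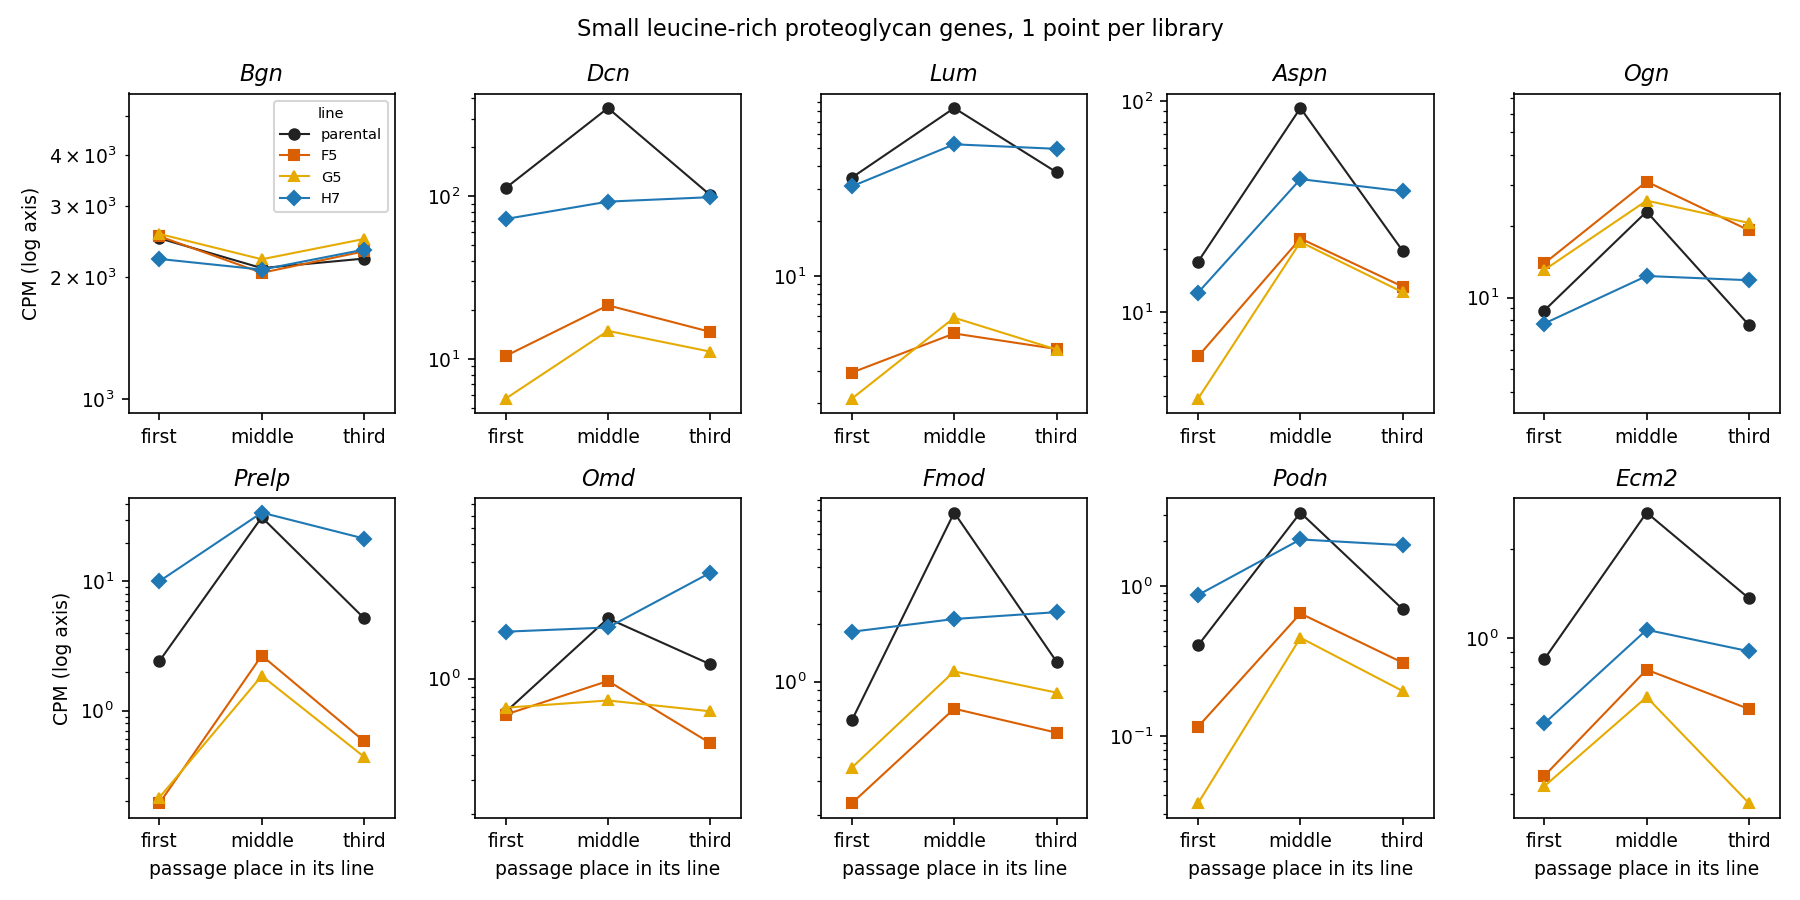
TMM-scaled CPM (log axis, its range set per gene) of the 10 genes by place of the passage in its line, 1 point per library, joined within a line. The middle passage is the highest point in all 4 lines for Lum, Aspn, Ogn, Prelp, Podn and Ecm2, and the lowest in all 4 lines for Bgn.

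Among the class II genes, Lum (lumican, a regulator of collagen fibril assembly known from the cornea) followed the line pattern of its neighbour Dcn. Its CPM was 34.5, 83.1 and 36.9 in the parental line, 2.95, 4.83 and 3.97 in F5 and 2.12, 5.89 and 3.95 in G5, with 30.9, 52.6 and 49.7 in H7. All F5 and G5 values lay below all parental and H7 values, and H7 overlapped the parental range. The log2 fold change was -3.71 ± 0.43 in F5 (edgeR adjusted p = 0.000418), -3.71 ± 0.43 in G5 (adjusted p = 0.000396) and -0.22 ± 0.37 in H7 (adjusted p = 0.738).

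Prelp, a heparin-binding protein of this class that links basement membranes to matrix, had the widest spread. It had 2.42, 31.4 and 5.18 CPM in the parental line, 0.192, 2.67 and 0.579 in F5 and 0.212, 1.86 and 0.438 in G5, with 10.0, 34.1 and 21.5 in H7. The F5 passage 8 value lay above the lowest parental value, so F5 overlapped the parental range, and G5 did not. Prelp was called lower in G5 (log2 fold change -4.03 ± 1.14, edgeR adjusted p = 0.0399) and was -3.44 ± 1.06 in F5 (adjusted p = 0.0524) and 0.74 ± 0.89 in H7 (adjusted p = 0.618). The G5 call was lost in 10 of 21 alternatives, among them limma on the TPM values and leaving out any 1 of the G5 libraries.

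Fmod (fibromodulin, abundant in tendon and cartilage) had 0.626, 7.74 and 1.27 CPM in the parental line. It had 0.230, 0.722 and 0.540 CPM in F5 and 0.354, 1.13 and 0.877 in G5, with 1.83, 2.14 and 2.32 in H7. The parental passage 7 library stood far above the other 11, and all 3 H7 values lay above the other parental values. The log2 fold changes of -2.67 ± 0.82 in F5 and -2.06 ± 0.79 in G5, with -0.63 ± 0.72 in H7, were not called (edgeR adjusted p = 0.0509, 0.113 and 0.601). Omd (osteomodulin, known from bone) was near the lower end of detection, at 0.671, 2.05 and 1.19 CPM in the parental line. In the clones it was 0.651, 0.973 and 0.463 CPM in F5 and 0.707, 0.771 and 0.677 in G5, with 1.75, 1.84 and 3.54 in H7, so all H7 values lay above all F5 and G5 values. No clone was called against the parental line for Omd (log2 fold change -0.90 ± 0.43 in F5 and -0.87 ± 0.44 in G5, with 0.85 ± 0.40 in H7, edgeR adjusted p = 0.198, 0.227 and 0.17).

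Ogn (osteoglycin or mimecan, of class III) had positive log2 fold changes in F5 and G5, where its 3 neighbours on chromosome 13 had negative ones. Its CPM was 8.81, 23.1 and 7.64 in the parental line, 13.9, 30.9 and 19.2 in F5 and 13.1, 25.7 and 20.7 in G5, with 7.76, 12.3 and 11.8 in H7. All F5 and G5 values were above all H7 values, and all 3 clones overlapped the parental range. The log2 fold changes of 0.69 ± 0.43 in F5 and 0.58 ± 0.43 in G5, with -0.31 ± 0.43 in H7, were not called (edgeR adjusted p = 0.315, 0.426 and 0.673). Podn (podocan, of class V, which binds collagen) had 0.403, 3.12 and 0.703 CPM in the parental line, 0.115, 0.659 and 0.309 in F5 and 0.0354 (1 count), 0.453 and 0.199 in G5, with 0.876, 2.06 and 1.89 in H7. The groups overlapped except that all H7 values lay above all F5 and G5 values, and no clone was called against the parental line (log2 fold change -1.93 ± 0.83, -2.68 ± 0.91 and 0.18 ± 0.73, edgeR adjusted p = 0.15, 0.0784 and 0.899).

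Counted over the genes, averaging the 3 clones and comparing them with the parental line gave 3 of 10 called lower (Dcn, Lum and Ecm2) and 0 called higher, where 10.5% of all genes tested were called lower and 8.55% higher. The log2 fold changes of the called genes were -2.95 ± 0.34 for Dcn (edgeR adjusted p = 0.000242), -2.55 ± 0.29 for Lum (adjusted p = 0.000217) and -1.49 ± 0.36 for Ecm2 (adjusted p = 0.0161). The median over the 10 genes was -1.48 and over all genes tested -0.02. That median rested on 1 library, since without parental passage 7 it was -0.096 over the 10 genes and -0.009 over all. The same test called 2 of 10 lower in F5 (Dcn and Lum), where 7.37% of all genes were called lower, and 4 of 10 in G5 (Dcn, Lum, Prelp and Ecm2), where 6.56% were. In H7 it called 0 of 10, where 19.6% of all genes were called in either direction, with 1 gene (Dcn, lower) at an unadjusted p under 0.05 and 0 called by DESeq2. The 3 comparisons share the parental libraries.

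**Figure D4:**
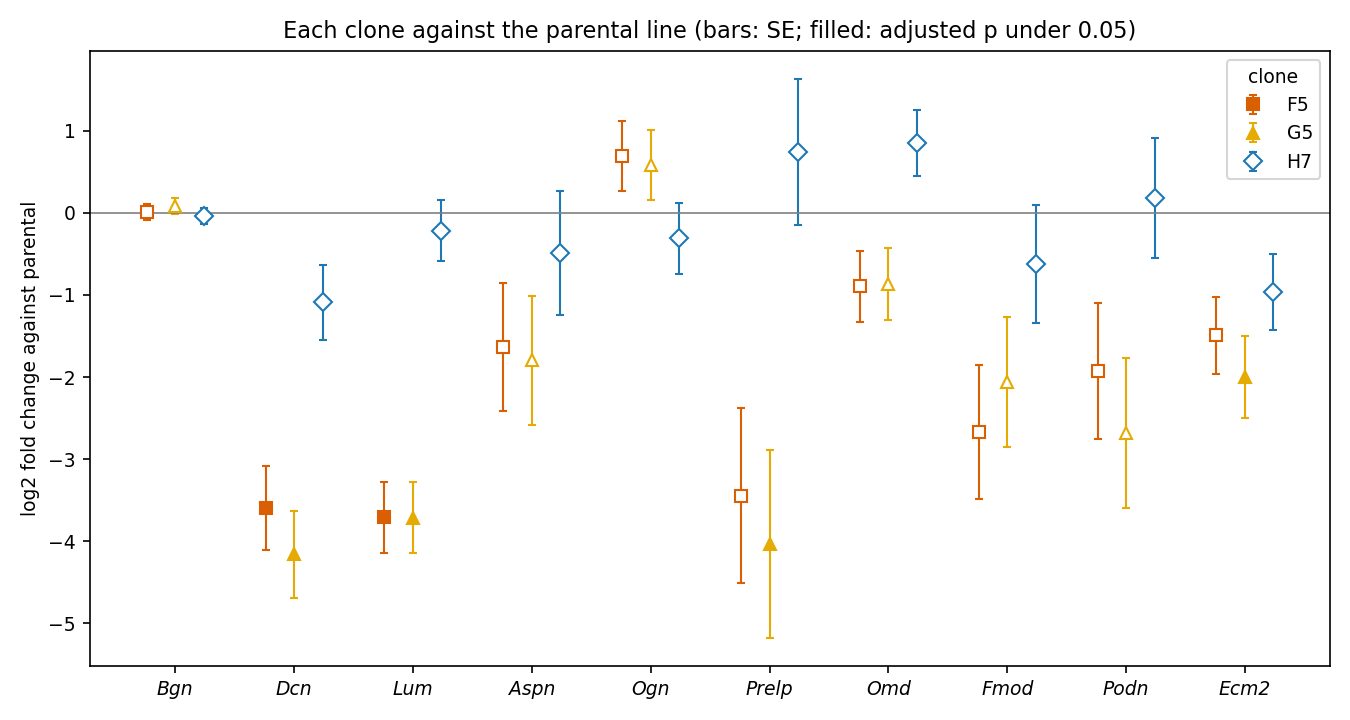
Log2 fold change of each gene in each clone against the parental line, from edgeR, with bars of 1 SE and filled symbols where the adjusted p is under 0.05. Dcn and Lum lie at or below -3.59 in both F5 and G5, while the H7 symbols are all open and lie between -1.09 and 0.85.

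The parental passage 7 library bore on several of these values. Without it, Dcn was still called lower in F5 (log2 fold change -2.78 ± 0.33, edgeR adjusted p = 0.000551) and G5 (-3.35 ± 0.34, adjusted p = 0.000211), and so was Lum (-3.18 ± 0.33, adjusted p = 0.000287, and -3.19 ± 0.33, adjusted p = 0.000251). Without it, Ecm2 was not called in the mean of the clones (-0.93 ± 0.38, adjusted p = 0.129), and neither Prelp (-2.26 ± 0.94, adjusted p = 0.153) nor Ecm2 (-1.45 ± 0.47, adjusted p = 0.0754) was called in G5. Fmod in the mean of the clones went from -1.79 ± 0.58 to -0.02 ± 0.41. Values that were not called moved as well: without that library Aspn had -0.40 in F5 and -0.56 in G5, Podn had -0.57 in F5, Prelp -1.66 in F5 and Dcn -0.28 in H7. In H7 the values of Aspn (0.75), Fmod (1.14), Lum (0.31) and Ogn (0.37) turned positive. Calls were also gained without it. Ogn was called higher in F5 (1.38 ± 0.36, edgeR adjusted p = 0.0302), where 7.00% of all genes were, and in G5 (1.26 ± 0.36, adjusted p = 0.0471), where 6.40% were. Omd was called higher in H7 (1.35 ± 0.41, adjusted p = 0.0411), where 9.62% of all genes were. With the counts summed to 1 library per line, so that the 3 clones are the replicates, edgeR called 0 of 10 in the mean of the clones (Dcn -2.32 ± 1.23, adjusted p = 0.556), 1 (Ecm2) had an unadjusted p under 0.05, and the lone parental sample is assumed to vary as the clones do. With the 9 clone libraries taken as 1 group, only Ecm2 was called, with Dcn at -2.30 (adjusted p = 0.0765) and Lum at -1.56 (adjusted p = 0.303).

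Passage place made the calls between the parental line and the clones more numerous when it was held constant as a block. With it, 7 of 10 were called lower in the mean of the clones (all but Bgn, Ogn and Omd), where 17.8% of all genes were. In F5 the block gave 7 lower and Ogn higher (log2 fold change 0.74 ± 0.21, edgeR adjusted p = 0.0245), against 15.0% and 13.8% of all genes. In G5 it gave 7 lower and Ogn higher (0.65 ± 0.21, adjusted p = 0.0439), against 13.8% and 13.1%. In H7 it gave 3 (Dcn -0.89 ± 0.27, adjusted p = 0.0265; Ecm2 -0.91 ± 0.25, adjusted p = 0.017; Prelp 1.29 ± 0.32, adjusted p = 0.0102), where 32.7% of all genes were called in either direction. With the 4 middle-passage libraries left out, a setting chosen after seeing the data, H7 had 2 of the 10 higher than the parental line, Prelp (2.06 ± 0.46, adjusted p = 0.0188) and Omd (1.51 ± 0.42, adjusted p = 0.0392), where 9.90% of all genes were called higher.

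Among the clones, H7 stood apart from F5 and G5, with higher Dcn, Lum, Prelp and Omd. Between F5 and G5, 0 of 10 genes were called by edgeR (0 also at an unadjusted p under 0.05, and 0 by DESeq2), where 0.258% of all genes were. The difference between F5 and G5 was 0.57 ± 0.50 on the log2 scale for Dcn and 0.00 ± 0.44 for Lum. Against H7, F5 had 4 of 10 called lower, where 8.49% of all genes were, and G5 had the same 4 of 10, where 8.51% were. These were Dcn (-2.50 ± 0.49 in F5 and -3.07 ± 0.51 in G5, edgeR adjusted p = 0.00498 and 0.00183), Lum (-3.49 ± 0.43 and -3.50 ± 0.43, adjusted p = 0.000309 and 0.000302), Prelp (-4.19 ± 1.07 and -4.78 ± 1.15, adjusted p = 0.0197 and 0.0146) and Omd (-1.75 ± 0.42 and -1.72 ± 0.42, adjusted p = 0.0143 and 0.0166). Dcn and Lum were called in all 21 alternatives of both comparisons. The Prelp and Omd calls were lost without passage 7 or passage 9 of the clone set against H7, the F5 call of Prelp also without H7 passage 8, and both Omd calls without H7 passage 9 (adjusted p up to 0.0813 for Prelp and 0.0764 for Omd).

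Same-numbered clone libraries deviated together, so the block is given beside these differences. With passage place as the block, F5 had 7 lower and Ogn higher than H7 (0.96 ± 0.21, edgeR adjusted p = 0.00614), where 15.7% and 15.6% of all genes were called lower and higher. G5 had 7 lower and Ogn higher than H7 (0.87 ± 0.21, adjusted p = 0.0108), where 15.0% and 14.6% were. Lum and Dcn kept their sizes under it (Lum -3.52 ± 0.20 in F5 and -3.53 ± 0.20 in G5; Dcn -2.60 ± 0.29 and -3.17 ± 0.31). Aspn became a call at -1.19 ± 0.31 in F5 (adjusted p = 0.0134) and -1.41 ± 0.31 in G5 (adjusted p = 0.00637), and Podn at -2.31 ± 0.42 (adjusted p = 0.00208) and -2.99 ± 0.47 (adjusted p = 0.000776).

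Within lines, most of the 10 genes peaked at the middle of the 3 passages. In a model with line and place, 8 of 10 were called higher in the middle passage than in the mean of the first and the third, where 16.5% of all genes were. Bgn was called lower, where 15.6% of all genes were. Prelp rose by 2.29 ± 0.28 (edgeR adjusted p = 0.000545), Podn by 1.67 ± 0.31 (adjusted p = 0.003), Aspn by 1.56 ± 0.22 (adjusted p = 0.000971) and Fmod by 1.42 ± 0.41 (adjusted p = 0.0244) on the log2 scale. Scp2, which overlaps Podn on the same strand, rose by 0.68 (edgeR adjusted p = 0.000674). Whether reads of Scp2 add to the Podn value was not tested. Ecm2 rose by 0.96 ± 0.19 (adjusted p = 0.00472), Dcn by 0.91 ± 0.21 (adjusted p = 0.00857), Ogn by 0.86 ± 0.15 (adjusted p = 0.00276) and Lum by 0.80 ± 0.14 (adjusted p = 0.00233). Bgn changed by -0.18 ± 0.05 (adjusted p = 0.0136), and Omd had 0.38 ± 0.29 (adjusted p = 0.341). The median was 0.94 over the 10 genes and 0.02 over all genes tested.

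The middle passage was the highest of its line in 33 of the 40 combinations of gene and line, a count for which no share over all genes was computed. It was the highest in all 4 lines for 6 of 10 genes (Lum, Prelp, Ogn, Aspn, Podn and Ecm2), where 13.2% of all genes tested showed that. For Dcn, Fmod and Omd it was the highest in 3 lines, and in H7 the third passage was higher. The summed cartilage markers, mostly Sox9, moved with the place of the passage, at 106 to 152 CPM in the 4 middle libraries and 156 to 292 in the other 8. The summed fibroblast markers, mostly Col1a1 and Col1a2, overlapped (12277 to 18283 and 13769 to 16373). That sum does not speak for each marker, since within the parental line Pdgfra ran from 221 to 951 CPM and Twist1 from 30.7 to 39.2. The part of these markers in the result was not tested.

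**Figure D5:**
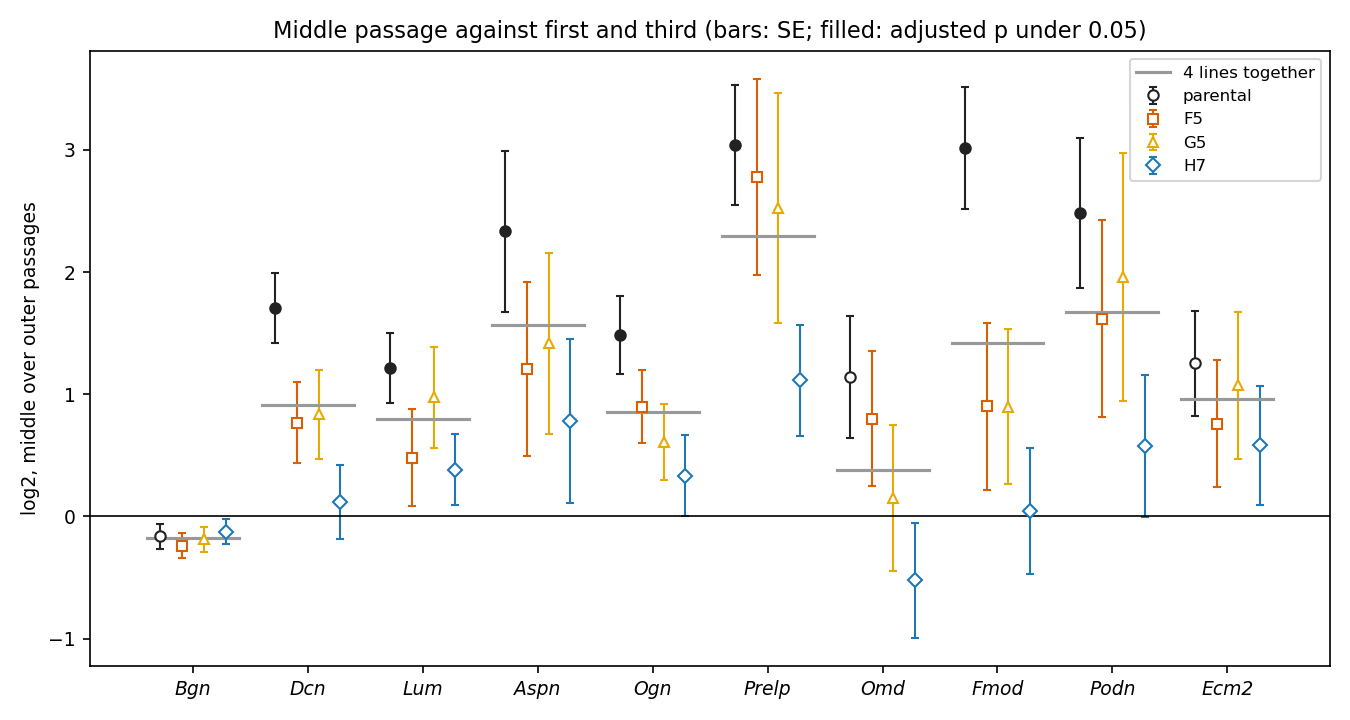
Log2 difference between the middle passage and the mean of the first and the third within each line, from edgeR, with bars of 1 SE, filled symbols where the adjusted p is under 0.05, and grey lines for the 4 lines together. Prelp is highest in the pooled fit at 2.29, Bgn lies at -0.18, and each gene but Bgn has its highest symbol in the parental line.

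A fit line by line, added after seeing the data, set the 1 middle library of each line against its 2 others. Its 4 residual degrees of freedom come from the first and the third passages alone, the lone middle library is assumed to vary like these, and parental passage 7 had already been seen to stand apart, so its values describe that library rather than the parental line. In it 7 of 10 passed the threshold, higher, where 10.9% of all genes did. These were Prelp (3.04 ± 0.49, edgeR adjusted p = 0.00552), Fmod (3.02 ± 0.50, adjusted p = 0.00592), Podn (2.48 ± 0.61, adjusted p = 0.0241), Aspn (2.34 ± 0.66, adjusted p = 0.0381), Dcn (1.71 ± 0.29, adjusted p = 0.00649), Ogn (1.49 ± 0.32, adjusted p = 0.0144) and Lum (1.22 ± 0.29, adjusted p = 0.0201). In F5, G5 and H7 edgeR called 0 of 10, with 3, 2 and 1 at an unadjusted p under 0.05, and it called 0%, 0.551% and 0% of all genes. Prelp had 2.78 ± 0.80 in F5 and 2.52 ± 0.94 in G5, with 1.11 ± 0.45 in H7. The clones' mean difference minus the parental one was below 0 for all 10 genes and called for 0 of 10 by edgeR, with 3 (Dcn, Fmod and Ogn) at an unadjusted p under 0.05, where 0.490% of all genes were called. The largest was Fmod at -2.40 ± 0.62 (adjusted p = 0.105).

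With the 9 clone libraries alone, 8 of the 9 middle-passage calls held and Fmod was not called (0.54, adjusted p = 0.152). Without parental passage 7 the Dcn difference was 0.51 (edgeR adjusted p = 0.0335) in place of 0.91, and Fmod was again not called (0.54, adjusted p = 0.141), as it was not without either other parental library or with limma on TPM. The Bgn call was lost with limma on TPM and without F5 passage 8 (adjusted p = 0.0644). Between the third and the first passage, edgeR called 0 of 10, with 6 at an unadjusted p under 0.05, all higher in the third, where 1.12% of all genes were called in either direction, and DESeq2 called 1 (Aspn). Aspn had the largest difference, at 1.17 ± 0.28 (edgeR adjusted p = 0.0753), and Bgn the only negative one, at -0.06 ± 0.05. In the 9 clone libraries alone 4 were called higher in the third passage (Dcn, Lum, Aspn and Ogn), where 4.54% of all genes were, and without parental passage 7 it was 3 (Prelp, Lum and Aspn).

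Of the 6 other tested genes beside or around the pairs and the row on the chromosomes, 5 had log2 fold changes between -0.41 and 0.27 in the mean of the clones, and Optc did not. Optc (opticin, a further gene of the family), 2305 bases from Prelp on the same strand, had a log2 fold change of -2.31 in the mean of the clones (edgeR adjusted p = 0.0719), where Prelp had -2.24 (adjusted p = 0.0558). In F5 Optc had -3.38 (adjusted p = 0.0881), in G5 -1.64 (adjusted p = 0.356) and in H7 -1.89 (adjusted p = 0.261), and it rose in the middle passage by 2.67 (adjusted p = 0.000309). It was near the lower end of detection, at 2.44 ± 2.89 CPM (SD, n = 3) in the parental line. Btg1, an antiproliferative gene on the far side of Dcn, had a log2 fold change of -0.22 in the mean of the clones (edgeR adjusted p = 0.022), and Atp2b1, a calcium pump gene on the far side of Lum, had -0.15 (adjusted p = 0.0766). In H7 they had -0.47 (adjusted p = 0.00122) and -0.45 (adjusted p = 0.00102), where Lum had -0.22. Over the other 645 tested genes of chromosome 10 the median log2 fold change was 0.01 in F5 and 0.00 in G5, with -0.20 in H7. Of the other 1021 tested genes of chromosome 1, home of Prelp and Fmod, it was -0.08 in F5 and -0.14 in G5, with -0.14 in H7. Btg2, beside Fmod, had -0.41 (adjusted p = 0.224) in the mean of the clones. Nol8, beside Ogn, had 0.27 (adjusted p = 0.156), and Cenpp, around the row of 4 genes, had 0.03 (adjusted p = 0.922). Beside Bgn, Haus7 had 0.10 (adjusted p = 0.719) and Dusp9 0.61 (adjusted p = 0.351) in the mean of the clones. Both fell in the middle passage, by -0.43 (adjusted p = 0.0046) and -1.03 (adjusted p = 0.00373). At Podn, Slc1a7 had 1.59 (adjusted p = 0.152) in the mean of the clones, at a mean of only 0.293 CPM, and Scp2 had -0.15 (adjusted p = 0.73).

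Of 8 further genes of the family, 4 passed the filter. Podnl1, the podocan-like gene, was higher in the mean of the clones (log2 fold change 0.47 ± 0.09, edgeR adjusted p = 0.00479), at 24.2 ± 1.90 CPM (SD, n = 3) in the parental line, 47.4 ± 3.40 in F5 and 39.7 ± 3.92 in G5, with 19.9 ± 2.46 in H7. Chadl, the chondroadherin-like gene, was lower in the mean of the clones (-0.87 ± 0.21, adjusted p = 0.0156) but among single clones only in H7 (-2.77 ± 0.32, adjusted p = 0.00018). Chadl was near the lower end of detection, with 212 counts over all 12 libraries. It had 0.818 ± 0.112 CPM in the parental line, 0.116 ± 0.0048 in H7, 1.12 ± 0.0998 in F5 (log2 fold change 0.44, adjusted p = 0.247) and 0.672 ± 0.174 in G5 (-0.28, adjusted p = 0.541). Optc was the 1 of these 4 called higher in the middle passage, where 16.5% of all genes were. The fourth, Tsku (tsukushi), was not called in either. Kera, Epyc, Chad and Nyx had 1 to 25 counts each over all 12 libraries.

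The genes of the enzymes that build the sugar chains had medians near 0 when the clones were averaged. In that average 10.5% of all genes tested were called lower and 8.55% higher. Among 19 tested genes of chondroitin and dermatan sulfate synthesis, 5 were lower in the mean of the clones and 0 higher, led by Dsel, a dermatan sulfate epimerase (log2 fold change -0.32 ± 0.07, edgeR adjusted p = 0.0118), and Chsy1, a chondroitin synthase (-0.32 ± 0.07, adjusted p = 0.0133), with a median over the list of -0.10. Chst14, which sulfates dermatan, was at -0.22 ± 0.06 (adjusted p = 0.0236). Of 7 tested genes of keratan sulfate synthesis, 1 was lower (St3gal2, -0.26 ± 0.08, adjusted p = 0.0388), and the median was -0.08. In that list Chst2, a sulfotransferase, was called in each clone but not in one direction, with log2 fold changes of 0.60 ± 0.12 in F5 (adjusted p = 0.00768), 0.99 ± 0.12 in G5 (adjusted p = 0.00051) and -0.66 ± 0.13 in H7 (adjusted p = 0.00392), and it was higher in G5 than in H7 by 1.65 ± 0.12 (adjusted p = 8.02e-06). Its level was 5.48 ± 0.51 CPM (SD, n = 3) in the parental line, 8.31 ± 1.20 in F5 and 10.9 ± 0.104 in G5, with 3.46 ± 0.000822 in H7. Besides Chst2, Fut8 was called lower in F5 and B4galt4 and St3gal2 in H7. Of 10 genes that supply sulfate and sugar donors, Papss1 was lower (-0.33 ± 0.08, adjusted p = 0.0195) and its paralogue Papss2 higher (0.25 ± 0.08, adjusted p = 0.0375), with a median of -0.08. In the middle passage 3 of the 19 rose and 5 fell, 2 of the 7 rose and 1 fell, and 1 of the 10 rose and 3 fell, where 16.5% of all genes rose and 15.6% fell.

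Most of the collagens that these proteins bind were lower in F5 and G5. Of 11 tested, 8 were called lower and 0 higher in F5, in G5 and in the mean of the clones, with medians of -0.77, -0.81 and -0.79. Of all genes tested, 7.37%, 6.56% and 10.5% were called lower in the same comparisons. In H7 2 of the 11 were called lower (Col6a1 and Col6a2) and 1 higher (Col11a1), with a median of -0.26. There 19.6% of all genes were called in either direction. Col6a1, a subunit of microfibrillar collagen VI, had 1542 ± 194 CPM (SD, n = 3) in parental cells, and F5 had 905, G5 877 and H7 852 (log2 fold change -0.81 ± 0.08, edgeR adjusted p = 7.08e-05), close to each other in the 3 clones. Col11a1, of cartilage-type fibrils, was at 16.6 ± 1.93 CPM in the parental line, 3.97 in F5 and 2.94 in G5, with 39.0 in H7, and so was lower than parental in F5 and G5 and higher in H7. In the middle passage 1 of the 11 was called, lower (Col2a1), where 15.6% of all genes were called lower and 16.5% higher.

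Of 16 tested receptors and ligands reported to bind the family, 4 were lower and 0 higher in the mean of the clones. Of all genes tested, 10.5% were called lower and 8.55% higher in that mean, and the lists below use the same comparison. Egfr, a receptor that decorin binds, had 26.5 ± 27.1 CPM in the parental line, 0.970 in F5 and 0.271 in G5, with 2.63 in H7 (log2 fold change -4.90 ± 0.50, edgeR adjusted p = 0.000117), and Igf1r had -0.34 ± 0.09 (adjusted p = 0.0198). The median over the list was -0.18. In the middle passage 6 of the 16 were called higher, Egfr among them, and 3 lower, where 16.5% and 15.6% of all genes were. Of 10 tested proteases reported to cleave the family, Htra1 was higher in the mean of the clones (2.15 ± 0.25, adjusted p = 0.000219), and Bmp1, which trims the biglycan propeptide, was lower (-0.62 ± 0.11, adjusted p = 0.00305), as was Adamts4 (-0.64 ± 0.18, adjusted p = 0.0317), with a median of -0.38. Of 17 other matrix and cell-surface proteoglycans, 6 were lower, among them Acan (aggrecan, -5.46 ± 0.57, adjusted p = 0.000134) and Gpc6 (a glypican, -3.24 ± 0.31, adjusted p = 7.08e-05, at 0.0793 CPM in H7 and 24.3 and 27.2 in F5 and G5), and 1 was higher (Sdc2, a syndecan, 0.39 ± 0.06, adjusted p = 0.00149), with a median of -0.39. Acan was near the lower end of detection, at 1.82 ± 0.995 CPM (SD, n = 3) in the parental line, 0.0128 in F5 and 0.0266 in G5, with 0.128 in H7.

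The 3 genes whose line means spanned the widest range were Prelp, Dcn and Lum, with ranges of 4.88, 4.00 and 3.66 on the log2 scale. Their pattern over the 12 libraries was compared with 8613 genes with a mean of at least 10 CPM, the 10 genes themselves and predicted genes left out. The measure was the root mean square difference of centred log2 CPM, given as a description. Between each other, Dcn and Lum lay 0.39 apart by this measure, and Prelp lay 1.02 from Lum and 1.18 from Dcn. Among the 8613 genes, the closest to Dcn was Tnn (tenascin-N, a matrix glycoprotein), at 0.32, followed by Grik2 at 0.73 and Col12a1, a collagen of fibril surfaces, at 0.78. For Lum the closest of these were Tnn at 0.46, Col11a1 at 0.72 and Col12a1 at 0.74. For Prelp they were Sod3 (extracellular superoxide dismutase) at 0.98, Cemip (a hyaluronan-degrading protein) at 1.09 and Tnn at 1.17. Tnn was on all 3 short lists, at 24.1 ± 17.4 CPM (SD, n = 3) in the parental line, 2.08 ± 0.615 in F5 and 1.00 ± 0.309 in G5, with 13.1 ± 2.34 in H7.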

How the data were processed

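RNA was measured in 12 libraries in 4 groups of 3. The authors deposited estimated counts and TPM per Ensembl gene, on build GRCm38 per the submitters' processing notes; which aligner, counter, annotation release and strand setting they used was not given in the sources used here. Among deposited counts over 0.5, 86.9% were within 0.01 of whole, and all were rounded for the tests. Every deposited TPM column summed to 1000000. Symbols matched 48435 of 48795 genes.

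Tests were edgeR 4.0.16 quasi-likelihood tests (R 4.3.3) with TMM factors and filterByExpr, all 12 libraries in 1 fit, Benjamini-Hochberg adjustment over 14704 genes, and a call at 0.05. The line model left 8 residual degrees of freedom and the place model 6, with a biological coefficient of variation of 15.5%. Tests were also run on simulated counts, drawn independently for each library. For the comparisons of lines the simulated counts held no difference by place, unlike the real libraries, and no conclusion is drawn from them. Alternatives used DESeq2 1.42.0 and limma 3.58.1 on log2(TPM + 1) or log2(TPM + 0.1), RLE size factors, no filter, other sample sets, blocks and left-out libraries. Deviations of same-numbered clone libraries correlated positively (r 0.153 to 0.501, 9 pairs), and those of same-numbered parental and clone libraries negatively (-0.526 to -0.187, 6 pairs). By place, parental and clone libraries had r 0.0447 to 0.503 (9 pairs). Members and lists were chosen with earlier results of these data known. All 10 members were named, with up to 3 genes of each list by smallest adjusted p in the mean of the clones, the nearest tested neighbours, and the 3 closest patterns for the 3 members of widest line range. Genes named beyond that were picked after their values were seen.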

Additional observations from a re-analysis of the deposited data

Results flagged for a closer look

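The clone effects differed between clones for 4 genes, tested directly as clone against clone by edgeR over all genes. Dcn was lower in F5 than in H7 by -2.50 ± 0.49 on the log2 scale and in G5 than in H7 by -3.07 ± 0.51. Lum had -3.49 ± 0.43 and -3.50 ± 0.43, Prelp -4.19 ± 1.07 and -4.78 ± 1.15, and Omd -1.75 ± 0.42 and -1.72 ± 0.42. The adjusted p-values ran from 0.000302 (Lum, G5 against H7) to 0.0197 (Prelp, F5 against H7). Both comparisons share the H7 libraries.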

How the results depend on the processing

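Of 90 values (10 genes in 9 comparisons), 26 were called, 15 of these kept their direction and call under every alternative run, and 0 of the called ones turned. The number of genes called in the mean of the clones was 3, and 0 with counts summed per line, 5 without the filter, 7 with the replicate block by place, 1 with the 9 clone libraries as 1 group, and 2 to 5 with 1 library left out. For F5 it was 2, and 5 with DESeq2, 4 without the filter, 8 with the place block and 2 to 5 with 1 library left out. For G5 it was 4, and 2 with limma on log2(TPM + 1) or with only the groups compared, 8 with the place block and 2 to 6 with 1 library left out. For H7 it was 0, and 3 with the place block, 2 without the middle-passage libraries and 0 to 1 with 1 library left out (1, Omd, without parental passage 7). For F5 and for G5 against H7 it was 4, and 7 with only the groups compared, 8 with the place block, and 2 to 7 and 2 to 6 with 1 library left out. For the third against the first passage it was 0, and 1 with DESeq2 or without the filter, 4 in the clones alone and 0 to 3 with 1 library left out. The block by passage number gave 3, 3, 4 and 0 for the mean, F5, G5 and H7, and 4 and 4 for F5 and G5 against H7, and did not pair parental with clone libraries. The cause of these shifts was not tested.

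Log2 values that turned sign were called in neither setting. With the passage-number block, H7 against parental was 0.0060 for Bgn, -0.53 for Podn and -0.11 for Prelp, and Ogn in the mean was -0.043. Fmod in H7 was 0.19 with limma on log2(TPM + 0.1). Lum in F5 against G5 was -0.018 with DESeq2 and -0.0086 with only the groups compared. Without the middle passages, H7 had 0.44 for Aspn, 1.13 for Fmod, 0.18 for Lum and 0.26 for Ogn, Omd in the mean had 0.12, and Ogn in F5 against G5 -0.022. With 1 library left out, H7 ranged from -0.87 to 0.75 for Aspn, -0.091 to 0.034 for Bgn, -1.11 to 1.14 for Fmod, -0.44 to 0.31 for Lum, -0.59 to 0.37 for Ogn and -0.25 to 1.53 for Podn. F5 against G5 ranged from -0.37 to 0.79 for Aspn, -0.15 to 0.00092 for Bgn, -0.31 to 0.39 for Lum, -0.25 to 0.35 for Ogn, -0.36 to 0.19 for Omd, -0.040 to 1.67 for Podn and -1.03 to 1.89 for Prelp. Bgn ranged from -0.050 to 0.090 in F5, -0.031 to 0.094 in the mean and -0.015 to 0.13 in F5 against H7. Omd ranged from -0.61 to 0.19 in the mean and -0.028 to 0.66 in the third against the first passage. Ecm2, Omd and Podn had under 100 counts in all 12 libraries, Fmod in 11, Prelp in 7 and Lum in 3, which limits their precision.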
